A study of Mus musculus with 16 samples.

Results

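The genes examined here encode the proteins of the cytosolic ribosome. They were chosen by name, as every symbol of the RNA-seq table that starts with Rpl or Rps followed by a digit, a or p, without the ribosomal S6 kinases (Rps6k), the Rps19 binding protein and entries named as pseudogenes (-ps). The rule gave 86 of the 15386 genes in that table, 50 of the large subunit (Rpl) and 36 of the small subunit (Rps), and 82 of the 86 were also among the 13490 genes of the m6A table. Entries named as pseudogenes, 49 in all, were left out. A few proteins of the ribosome have other names (such as *Fau* and *Rack1*) and are described apart. By the annotation, 4 members (*Rps3a2*, *Rps4l*, *Rps12l1* and *Rpl37rt*) are retrocopies classed as processed pseudogenes despite their names.

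The RNA was from bone marrow cells of C57BL/6 mice of both sexes. Control CFU-E cells (erythroid progenitors just before proerythroblasts, sorted as live lineage-negative Kit+CD71+ cells without CD16/32, CD41, CD34 and Sca1) gave 3 RNA-seq libraries, and cells of the CFU-E Kit-lo gate from *Mettl3* fl/fl *EpoR* Cre/- mice, in which *Mettl3* is deleted, gave 3 more. The Cre is driven by *EpoR* and also recombines in macrophages of the erythroblastic islands and in part in stem cells. The groups differ in genotype and in the Kit gate, and the effects of these cannot be told apart, because control cells of low Kit were not analysed here. Control CFU-E cells also gave 2 libraries of RNA pulled down with an antibody against N6-methyladenosine (m6A IP) and 2 of the input RNA. The genotype of the control mice beyond the word control, and whether the libraries of a group came from separate animals, are not given in the sources used here, so the p-values measure only the spread between these libraries, which may be technical.

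*Mettl3*, which encodes the catalytic subunit of the m6A methyltransferase, had normalised read counts (CPM, counts scaled to a common library total) of 115, 123 and 130 in control CFU-E and of 117, 127 and 108 in the CFU-E Kit-lo cells labelled *Mettl3*-deficient. The groups overlapped (log2 fold change -0.07, standard error 0.10, adjusted p = 0.63). The counts cover the whole gene and do not show the deleted exons apart, so they check no deletion and every direction below rests on the labels. *Kit*, the receptor of the gate, was at 544, 629 and 622 CPM in control CFU-E and at 68.5, 53.1 and 44.0 CPM in the CFU-E Kit-lo libraries, well apart. The library totals were 21329242, 17429262 and 18163121 counts in control CFU-E, 18698840, 19987964 and 19313314 in CFU-E Kit-lo, 23160909 and 19421059 in the input and 37142742 and 20085663 in the m6A IP.

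Each ribosome carries a single copy of most of these proteins, placed on the rRNAs of the small subunit, which reads the mRNA, and of the large subunit, which joins the amino acids. Their mRNAs are abundant and short and belong to the TOP mRNAs, which start with a C and a run of pyrimidines and are translated under the control of mTORC1 and Larp1. Red cell precursors depend on ribosome supply to make globin, and loss of 1 copy of any of several of these genes causes Diamond-Blackfan anemia, a failure of red cell production.

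RefSeq start windows (build GRCm38.p6, 15 bases on each side of the annotated start, 5′ to 3′ on the strand of the gene) were found for 63 members, and 8 of those with a single annotated start are shown because they hold or lack the pyrimidine run by which TOP mRNAs are known. The capitals mark CTTTC and CTTCC, which can overlap by a base.
Rpl7a: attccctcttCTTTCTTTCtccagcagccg
Rpl35: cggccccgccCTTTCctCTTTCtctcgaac
Rpl15: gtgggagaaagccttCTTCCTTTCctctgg
Rplp2: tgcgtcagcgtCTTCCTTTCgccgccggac
Rps10: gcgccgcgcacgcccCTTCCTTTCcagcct
Rpl22l1: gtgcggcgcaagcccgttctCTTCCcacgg
Rpl14: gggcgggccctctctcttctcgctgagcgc
Rpl11: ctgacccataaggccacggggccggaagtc

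The windows lie at chr2:26910792-26910821 on the plus strand (*Rpl7a*), chr2:39005117-39005146 on the minus strand (*Rpl35*), chr14:18270972-18271001 on the minus strand (*Rpl15*), chr7:141447636-141447665 on the plus strand (*Rplp2*), chr17:27635230-27635259 on the minus strand (*Rps10*), chr3:28805493-28805522 on the plus strand (*Rpl22l1*), chr9:120571502-120571531 on the plus strand (*Rpl14*) and chr4:136053379-136053408 on the minus strand (*Rpl11*). *Rpl14* has a run of pyrimidines without either of the letter strings, and *Rpl11* has none at its annotated start. On the sense strand, CTTTC was in the window of 17 of the 63 members (27.0%), of 4.24% of the other genes tested in the RNA-seq and of 4.76% of all RefSeq promoters. CTTTC or CTTCC was in 25 members (39.7%), against 14.3% and 12.1%. CCGGAAG, searched on both strands of 300 bases around the start, was in 25 members (39.7%), in 21.2% of the other tested genes and in 9.93% of all promoters. These matches describe the annotated starts, and the 5′ ends of the RNAs in these libraries were not measured.

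Ribosomal protein genes took a smaller share of the RNA-seq counts in CFU-E Kit-lo, the cells labelled *Mettl3*-deficient, than in the controls. The share was 3.41%, 3.88% and 3.48% of all counts in the control libraries, with a mean of 3.59% ± 0.253 (SD, n = 3), and 2.42%, 2.49% and 3.10% in the CFU-E Kit-lo libraries, with a mean of 2.67% ± 0.373 (SD, n = 3). Every CFU-E Kit-lo library was below every control library, and replicate 3 was the nearest to the controls. Large-subunit genes held 2.40% ± 0.133 of the counts in control CFU-E and 1.71% ± 0.167 in CFU-E Kit-lo (SD, n = 3 each), and their groups did not overlap. Small-subunit genes held 1.19% ± 0.124 and 0.959% ± 0.210 (SD, n = 3 each), and here the groups overlapped, with 1.12%, 1.33% and 1.12% in control CFU-E and 0.794%, 0.888% and 1.20% in CFU-E Kit-lo. Without *Rps2*, which differed widely between libraries, the small subunit was at 1.09% ± 0.0741 and 0.817% ± 0.0825 (SD, n = 3 each) and its groups were apart. In these bulk samples, fewer cells of a type and less RNA per cell cannot be told apart.

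**Figure D1:**
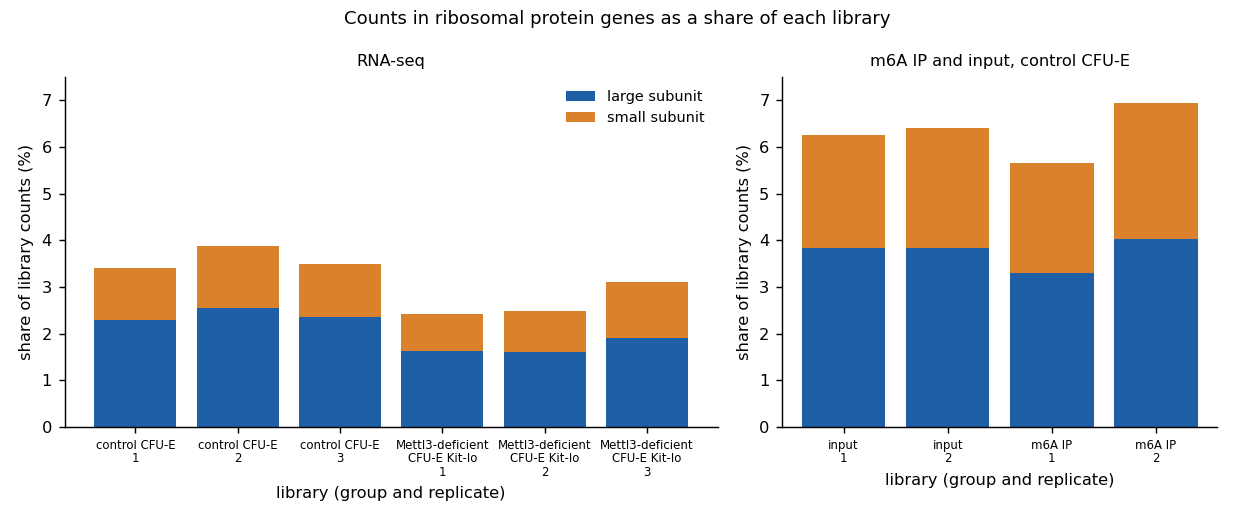
Share of each library's counts (percent, y axis) in large-subunit (blue) and small-subunit (orange) ribosomal protein genes, stacked, in the 6 RNA-seq libraries on the left and the 4 m6A libraries of control CFU-E on the right. The 3 CFU-E Kit-lo libraries (labelled *Mettl3*-deficient) stand at 2.42% to 3.10%, below the 3.41% to 3.88% of control CFU-E, and the m6A libraries stand at 5.67% to 6.95%.

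Gene by gene, 78 of the 85 members tested had a log2 fold change below 0 in CFU-E Kit-lo over control CFU-E, beside 49.4% of all 11979 genes tested. Of the 85, 63 fell (adjusted p under 0.05 quasi-likelihood test of edgeR, Benjamini-Hochberg adjustment over all genes tested), 3 rose and 19 were not called. The share of members that fell was 74.1%, beside 16.9% of all genes, and the share that rose was 3.53%, beside 17.6%. The falls were small. The median log2 fold change was -0.50, a 1.42-fold lower level, with quartiles at -0.63 and -0.36, whereas the median of all genes was 0.01. By the stricter rule for differentially expressed genes (DEGs), which also asks for a fold of 1.5, 22 members were lower (25.9%, beside 9.83% of all genes) and 1 was higher (beside 12.1%). In 71 members every CFU-E Kit-lo library was below every control library (83.5%, beside 24% of all genes), and in 3 every library was above (beside 23.5%). *Rps3a2*, at 0.34 to 0.48 CPM in control CFU-E, was below the filter on low counts and was not tested.

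**Figure D2:**
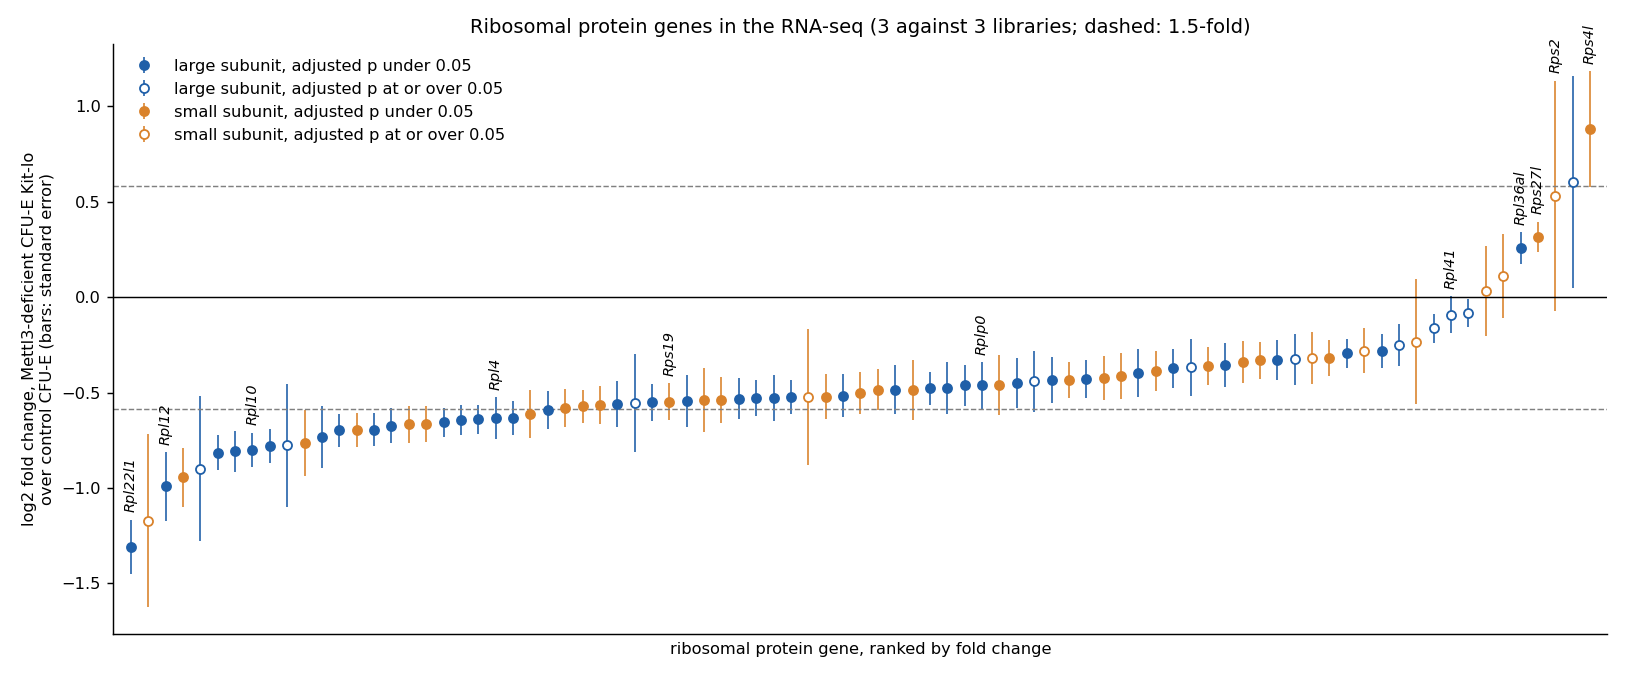
Log2 fold change of the 85 tested ribosomal protein genes (y axis, with standard errors) in CFU-E Kit-lo (labelled *Mettl3*-deficient) over control CFU-E, ranked from the lowest to the highest, with filled points for adjusted p under 0.05 and dashed lines at 1.5-fold. Points of both subunits lie below 0 in 78 members, from *Rpl22l1* at -1.31, and *Rps4l* at 0.88 is at the upper end.

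Both subunits took part. Of the 50 large-subunit genes 38 fell and 1 rose, with a median log2 fold change of -0.52, and of the 35 small-subunit genes tested 25 fell and 2 rose, with a median of -0.48. DEGs that fell were 16 of the 50 and 6 of the 35, and 1 of the 35 was a DEG that rose. Among the 77 members that are neither minor paralogs nor copies, 61 fell and 0 rose by edgeR, also 0 by DESeq2 and 0 at an unadjusted p under 0.05, with a median of -0.53 in the large and -0.49 in the small subunit. All 46 of the large-subunit genes among them were below 0. The calls went with the level of the gene. Of 54 members at 100 CPM or more in control CFU-E, 47 fell, of 22 members at 10 to 100 CPM, 16 fell, and of 9 members under 10 CPM none fell, although the medians of the bands were similar at -0.48, -0.51 and -0.52. The median standard error was 0.10 in the highest and 0.32 in the lowest band, so falls of this size were not detectable in the members of low count.

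The CFU-E Kit-lo libraries were not alike. On the scale of log2 CPM over the control mean, the median member was at -0.58, -0.57 and -0.40 in replicates 1, 2 and 3, whereas it was at -0.02, 0.08 and -0.07 in the control libraries. Replicate 3 was the highest of the CFU-E Kit-lo libraries for 64 of 85 members, replicate 1 for 11 and replicate 2 for 10. The median coefficient of variation of a member was 7.93% in control CFU-E and 10.7% in CFU-E Kit-lo. Without replicate 3 of CFU-E Kit-lo, 34 members were DEGs that fell, and without replicate 3 of control CFU-E 36 were, in place of 22. Leaving out replicate 2 of CFU-E Kit-lo gave fewer than 22, so the count moved in both directions.

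**Figure D3:**
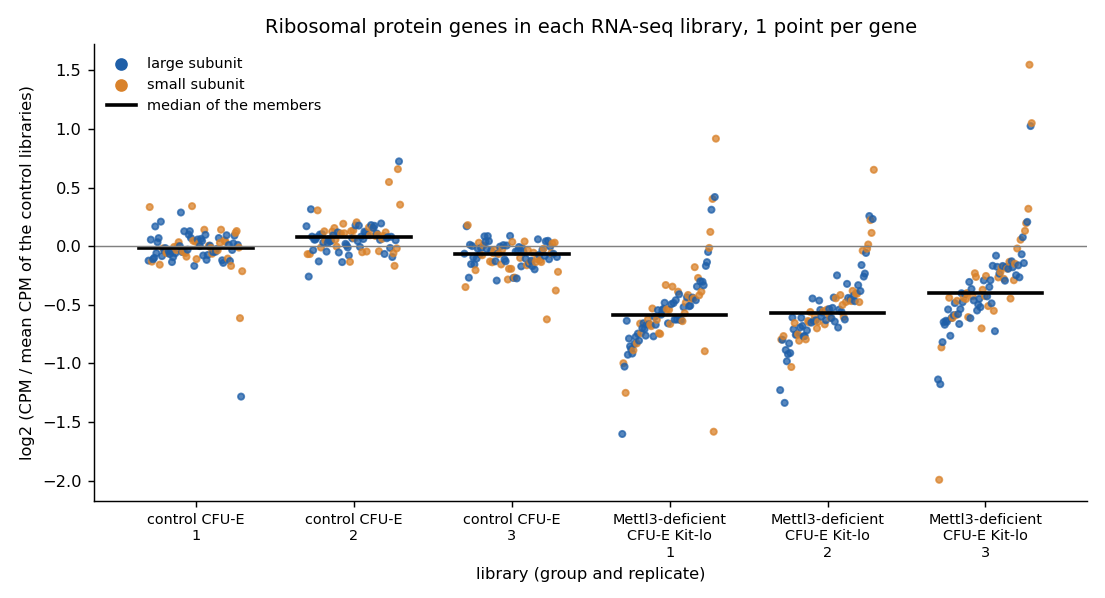
Each point is a ribosomal protein gene in a RNA-seq library, as log2 of its CPM over the mean CPM of the 3 control libraries (y axis), coloured by subunit, with the 85 members in the same order in every library and a black bar at their median. The bars lie at -0.58, -0.57 and -0.40 in the 3 CFU-E Kit-lo libraries (labelled *Mettl3*-deficient) and between -0.07 and 0.08 in control CFU-E.

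Among large-subunit genes, the largest fall of a core protein was that of *Rpl12*, which sits at the base of the stalk that recruits elongation factors. It was at 24.8, 19.9 and 26.8 CPM in control CFU-E and at 11.7, 13.7 and 10.5 CPM in CFU-E Kit-lo (log2 fold change -0.99, standard error 0.18, adjusted p = 0.0020). The groups were far apart for a gene of this level. *Rpl14*, *Rpl13* and *Rpl10* followed at -0.81, -0.81 and -0.80, all with standard errors of 0.09 to 0.11. *Rpl10*, which joins the large subunit late in its maturation, was at 518, 561 and 540.1 CPM in control CFU-E and at 299, 285 and 347 CPM in CFU-E Kit-lo, so that even the highest CFU-E Kit-lo library was well below the lowest control. *Rpl17* stood at -0.78 and *Rpl30* at -0.73. *Rpl7*, *Rpl24*, *Rpl7a*, *Rpl9* and *Rpl3*, the last a protein near the peptidyl transferase centre, fell by 0.64 to 0.70 on the log2 scale and were DEGs. Of these genes *Rpl9*, *Rpl10*, *Rpl13*, *Rpl14* and *Rpl17* have pseudogene entries of their own in the table, with which kallisto could have split their reads, and summing the entries into the gene, an alternative chosen after seeing the data, left 63 falls and 22 DEGs lower.

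*Rpl4* and *Rpl6* are large-subunit proteins of high level. *Rpl4*, which lines the peptide exit tunnel, was at 5945, 6712 and 6931 CPM in control CFU-E and at 3848, 3831 and 4944 CPM in CFU-E Kit-lo (log2 fold change -0.63, standard error 0.11, adjusted p = 0.0015), and it alone held 0.582% to 0.673% of all counts in control CFU-E. *Rpl6* was at 2257, 2486 and 2480.4 CPM and at 1517, 1416 and 1729 CPM (log2 fold change -0.63, standard error 0.09, adjusted p = 0.00042). Neither gene's groups overlapped, and both were DEGs. Per length (CPM per kilobase of the median annotated coding transcript), the 6 highest members in control CFU-E were *Rplp0* at 4882, *Rpl4* at 4245, *Rps3* at 2163, *Rps9* at 2149, *Rpl6* at 1896 and *Rps3a1* at 1822. The median member was at 234.8 and the median tested gene at 10.5 CPM per kilobase. Per length of the longest annotated transcript, *Rps3* was at 647 and 5 of the 6 stayed among the 6 highest, so the order depends on which transcripts are present.

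Small-subunit genes that fell as DEGs included *Rps12*, *Rps20*, *Rps13* and *Rps27a*. *Rps12* had the largest of these falls, from 46.6, 48.7 and 57.8 CPM in control CFU-E to 21.5, 30.01 and 28.1 CPM in CFU-E Kit-lo (log2 fold change -0.94, standard error 0.16, adjusted p = 0.0012). *Rps20*, which lies near the head of the subunit, stood at -0.76 with control libraries at 155, 214 and 150.2 CPM and CFU-E Kit-lo libraries at 93.5, 84.7 and 128 CPM. Its groups were apart but replicate 3 of CFU-E Kit-lo came close to the controls. *Rps13* stood at -0.70 and *Rps27a*, which is made fused to ubiquitin, at -0.66. Kallisto could have split the reads of *Rps12* and *Rps13* with those of their copies. In replicate 1 of control CFU-E, *Rps12* held 973 counts, *Rps12l1* 880 and *Rps12-ps3* 717. In the same library *Rps13* held 3389 counts and *Rps13-ps2* 1492. *Rps9* and *Rps3*, which form the entry of the mRNA channel, fell by 0.57 and 0.54 and *Rps3a1* by 0.49. All 3 were short of the fold threshold, which is 0.585 on the log2 scale. *Rps6*, the substrate of the S6 kinases, was at 870.0, 841 and 892 CPM in control CFU-E and 557, 650.2 and 721 CPM in CFU-E Kit-lo, apart and lower by 0.43 (adjusted p = 0.0059). *Rps4x* (-0.58) and *Rps9* (-0.57) were just outside the fold threshold and *Rpl11* (-0.59) just inside it.

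Members were also grouped by their place in the ribosome, a grouping made after the values were seen. The 5S RNP, which docks onto the large subunit and can bind Mdm2 when free, holds *Rpl5* and *Rpl11*. *Rpl5* was at 353, 352 and 385 CPM in control CFU-E and at 224, 225 and 243 CPM in CFU-E Kit-lo (log2 fold change -0.66, standard error 0.08, adjusted p = 0.00015), and *Rpl11* at 236, 262 and 239 CPM and at 155, 149 and 185 CPM (log2 fold change -0.59, standard error 0.10, adjusted p = 0.0013). Both fell with no overlap of the groups. Of the stalk and its base, *Rplp0*, *Rplp1* and *Rplp2* fell by 0.46, 0.40 and 0.28 beside the 0.99 of *Rpl12*. *Rplp0* was at 3946, 4413 and 4149 CPM and at 2702, 2670 and 3714 CPM, and its adjusted p of 0.015 rested on replicate 2 of CFU-E Kit-lo, without which it was 0.060. Of 8 proteins at the exit of the peptide tunnel, 6 fell, with *Rpl17* lowest at -0.78 and *Rpl35* highest at -0.29, and *Rpl22* (adjusted p = 0.057) and *Rpl39* were not called. Around the mRNA exit of the small subunit, *Rps14*, *Rps26* and *Rps28* fell by 0.32, 0.42 and 0.48. *Rpsa*, also the laminin receptor, was at 627, 733 and 665 CPM and at 516, 485 and 666 CPM, with overlap of the groups (log2 fold change -0.28, adjusted p = 0.095).

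Of 19 members whose human counterparts are mutated in Diamond-Blackfan anemia, all 19 were below 0 with complete separation of the groups. Of the 58 other core members, 55 were below 0 and 50 were lower with complete separation. Falls were called in 18 of the 19 and in 43 of the 58. Of all genes tested, 49.4% were below 0, 24% were lower with complete separation and 16.9% fell. The median was -0.52 in the 19 and -0.53 in the 58. DEGs that fell were 3 of the 19, *Rpl5* and *Rpl11* among them, and 18 of the 58, beside 9.83% of all genes. *Rps19*, the gene most often mutated in the disease, was at 141, 157 and 139 CPM in control CFU-E and at 94.0, 96.1 and 108 CPM in CFU-E Kit-lo (log2 fold change -0.55, standard error 0.10, adjusted p = 0.0016). Its groups stood well apart. *Rps29*, at 1.93 to 3.97 CPM in the 6 libraries, had a log2 fold change of -0.52 with a standard error of 0.36 and was the member of the list that was not called.

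Minor paralogs and retrocopies did not move together. Of the 9 such members 8 were tested, 2 fell, 3 rose and 3 were not called, and all 3 members that rose were among them. Of all genes 16.9% fell and 17.6% rose, and the 25% of the 8 that fell was near that share. With 8 genes such shares are coarse. *Rpl22l1*, the paralog of *Rpl22* at chr3:28805436-28807424 on the plus strand, had the largest fall of all members, from 84.2, 103 and 87.8 CPM in control CFU-E to 30.2, 39.2 and 41.7 CPM in CFU-E Kit-lo (log2 fold change -1.31, standard error 0.14, adjusted p = 9.2e-05). *Rpl22* itself was at 79.1, 93.5 and 84.7 CPM and at 55.5, 53.0 and 81.1 CPM, with overlap through replicate 3 (log2 fold change -0.44, standard error 0.16, adjusted p = 0.057). The paralog thus fell where its partner was not called, and the difference between them was not tested. *Rps12l1*, a retrocopy of *Rps12*, fell by 0.54 (adjusted p = 0.030), a call lost without replicate 1 or 2 of either group (adjusted p = 0.067 to 0.12), and reads of the copies cannot be told apart with certainty.

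*Rps27l*, the paralog of *Rps27* and a known p53 target, was at 188, 187 and 193 CPM in control CFU-E and at 250.0, 221 and 236 CPM in CFU-E Kit-lo (log2 fold change 0.32, standard error 0.08, adjusted p = 0.011), without overlap. *Rps27* fell from 116, 123 and 98.6 CPM to 77.6, 71.0 and 87.1 CPM (log2 fold change -0.52, standard error 0.12, adjusted p = 0.0065). *Rpl36al*, an intronless paralog of *Rpl36a*, was at 116, 119 and 110 CPM and at 142, 137 and 133 CPM (log2 fold change 0.26, standard error 0.08, adjusted p = 0.036), whereas *Rpl36a* stood at -0.33 (adjusted p = 0.084). *Rps4l*, a retrocopy of the X-linked *Rps4x* at chr6:148354656-148355598 on the plus strand, was at 2.59, 3.83 and 2.58 CPM and at 5.66, 4.71 and 6.21 CPM (log2 fold change 0.88, standard error 0.30, adjusted p = 0.047). The groups of all 3 were apart, but the calls of *Rps4l* and *Rpl36al* were close to the threshold. The calls of *Rps4l*, the DEG that rose, and of *Rpl36al* were each lost under 8 of 14 alternatives, 5 of them with a single library left out, with adjusted p-values of up to 0.15 for both, and without replicate 1 of control CFU-E *Rps27l* had 0.052. *Rpl7l1*, a relative of *Rpl7* that acts in ribosome assembly, was at 770, 679 and 722 CPM and at 699, 695 and 655 CPM (log2 fold change -0.08, standard error 0.08, adjusted p = 0.44), so its groups overlapped while *Rpl7* fell by 0.70. *Rps27rt* (-0.23) and *Rpl37rt* (0.61), both of low level, had standard errors of 0.33 and 0.56 and were not called.

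Some core members were also near 0. *Rpl41*, the shortest of these proteins, was at 243, 253 and 221 CPM and at 218, 203 and 252 CPM, and *Rpl29* at 543, 549.7 and 573 CPM and at 494, 464 and 529 CPM. The log2 fold changes were -0.09 (standard error 0.10) and -0.16 (standard error 0.08), the groups overlapped for *Rpl41* and not for *Rpl29*, and neither was called (adjusted p = 0.52 and 0.13). *Rps15* and *Rps21*, at 5.43 to 7.88 CPM in all libraries, had log2 fold changes of 0.11 and 0.03 with standard errors of 0.22 and 0.24, and that of *Rps21* was -0.01 with upper-quartile normalization. *Rpl38* and *Rpl39* had log2 fold changes of -0.90 and -0.78 but were at 4.23 CPM or less in every library, and with standard errors of 0.38 and 0.32 neither was called (adjusted p = 0.095 and 0.089).

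*Rps2*, which lies near the entry of the mRNA channel, differed between libraries of the same group. It was at 641, 1546 and 754 CPM in control CFU-E and at 327, 1060.3 and 2865 CPM in CFU-E Kit-lo, so that replicates 1 and 3 of CFU-E Kit-lo were the lowest and the highest of all 6 libraries. The coefficients of variation were 50.3% and 92.1%, and the log2 fold change was 0.53 with a standard error of 0.60 (adjusted p = 0.54), which became -0.50 without replicate 3 of CFU-E Kit-lo (adjusted p = 0.43). The table has 5 pseudogene entries of *Rps2*, and together with *Rps2* they held 6345 counts in replicate 1 and 55027 in replicate 3 of CFU-E Kit-lo, beside 6302 and 54940 of *Rps2* alone, so those entries held few of the counts.

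Counts in the pseudogene entries moved with the members. Their sum was 0.349%, 0.398% and 0.327% of the control libraries and 0.231%, 0.241% and 0.287% of the CFU-E Kit-lo libraries. *Rps6-ps4*, *Rpl15-ps3* and *Rpl10-ps1* held most of it, with 28823, 20784 and 17771 counts in replicate 1 of control CFU-E, beside 18168, 9220 and 10816 counts of *Rps6*, *Rpl15* and *Rpl10* in the same library. These entries are near-identical to their genes, and the single values of such pairs are therefore uncertain.

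The proteins of the ribosome with other names went the same way. *Rack1*, a scaffold on the small subunit, was at 958, 939 and 983 CPM in control CFU-E and at 576, 539 and 583 CPM in CFU-E Kit-lo (log2 fold change -0.76, standard error 0.07, adjusted p = 3.2e-05), with the groups far apart. *Fau*, which carries Rps30, stood at -0.71 (adjusted p = 0.0032). Of 20 other genes with TOP mRNAs, chiefly elongation and initiation factors, 15 fell and 0 rose (0 by DESeq2 and at an unadjusted p under 0.05). The share that fell was 75%, beside 16.9% of all genes, whereas 17.6% of all genes rose. The median log2 fold change of the 20 was -0.58. *Npm1*, a nucleolar protein of ribosome assembly, was at 1112, 1206 and 1299 CPM and at 445, 435 and 441 CPM (log2 fold change -1.45). *Eef1a1*, the elongation factor that brings aminoacyl-tRNA, was at 15207, 17473 and 17616 CPM and at 9995, 9902 and 12838 CPM (log2 fold change -0.62). *Eef2* (-0.17), *Eef1d* (-0.03) and *Nap1l1* (-0.11) were not called, and nor were *Eif3f* and *Eif3k*.

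Genes that serve the ribosomal proteins were mixed, and their counts are to be read beside the 16.9% of all genes that fell and the 17.6% that rose. Of 11 chaperones and importers of ribosomal proteins 7 fell and 1 rose. *Tsr2*, the chaperone of Rps26 and itself a Diamond-Blackfan gene, fell from 47.7, 41.0 and 40.6 CPM to 33.8, 31.9 and 29.2 CPM (log2 fold change -0.45, adjusted p = 0.020), *Heatr3*, an importer of Rpl5, by 0.58, and *Pdcd2*, a chaperone of Rps2, by 1.20, whereas *Grwd1*, a chaperone of Rpl3, rose by 0.62. Of 18 regulators of TOP mRNA translation 5 fell and 1 rose. *Larp1* was at -0.05 (adjusted p = 0.79), *Mtor* at 0.46 (adjusted p = 0.086) and *Rptor* at 0.43 (adjusted p = 0.055), while *Mlst8* fell by 0.66, *Eif4ebp2* by 0.73 and *Rps6ka3* by 1.24, and *Rps6ka1* rose by 1.47. Of 9 genes of ribosome rescue and recycling 2 fell and 2 rose, near the shares of all genes. *Pelo*, which splits stalled ribosomes, was at 1.72, 1.26 and 2.06 CPM in control CFU-E and at 5.14, 7.53 and 7.72 CPM in CFU-E Kit-lo (log2 fold change 2.01, standard error 0.33, adjusted p = 0.0012). *Hbs1l*, the partner of *Pelo*, stood at -0.19 and was not called. *Gtpbp2* rose by 1.07 and *Abce1* fell by 0.25.

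Markers of erythroid stage moved with the groups as well. Of the late erythroid genes 12 were tested, 10 of which rose and 1 fell, beside 17.6% of all genes that rose and 16.9% that fell. Their summed level was 10702, 9819 and 10544 CPM in control CFU-E and 8678, 10298 and 10369 CPM in CFU-E Kit-lo, most of it *Car2*, which fell by 0.33, while *Slc4a1*, the chloride-bicarbonate exchanger of red cells, went from 0.96, 1.43 and 3.15 CPM to 198, 313 and 352 CPM. The 5 globin genes in the table summed to 67.3, 62.8 and 70.6 CPM in control CFU-E and to 2232, 3796 and 2778 CPM in CFU-E Kit-lo, where *Hba-a2* was the most abundant. They were 0.00656% ± 0.000246 of the counts in control CFU-E and 0.299% ± 0.0831 in CFU-E Kit-lo (SD, n = 3 each), and leaving them out of the totals put the share of ribosomal protein genes at 2.68% in CFU-E Kit-lo in place of 2.67%. The part of erythroid stage in the fall of the ribosomal protein genes was not tested.

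Markers of other cells were at low levels, and some of them differed between the groups. Of 7 erythroid markers all were present, led by *Klf1* at 919 to 1008 CPM in control CFU-E and 1392 to 1540 CPM in CFU-E Kit-lo, and their sum was 3136 to 3245 CPM and 3189 to 3365 CPM. The sum joined opposite changes. Of the 7, 3 rose, 3 were not called and *Kit*, the receptor of the gate, fell (log2 fold change -3.44), beside 17.6% of all genes that rose and 16.9% that fell. The 8 macrophage markers summed to 8.69 to 13.7 CPM and 7.82 to 9.39 CPM, led by *Cd68*, with *Adgre1* at 0 in all CFU-E Kit-lo libraries and *C1qa* lower. The 8 granulocyte markers summed to 37.8, 29.2 and 25.5 CPM and to 16.4, 16.0 and 24.0 CPM, led by *Mpo* or *Prtn3*, with *Mpo* lower and *Ngp* higher in CFU-E Kit-lo. Of 5 megakaryocyte markers 3 were in the table and summed to 4.31 to 6.63 CPM and 6.73 to 16.0 CPM, led by *Itga2b*, which rose (between 2.46 and 3.03 CPM in control CFU-E and between 3.96 and 12.04 CPM in CFU-E Kit-lo), as did *Gp9* (between 1.10 and 1.72 CPM and between 2.76 and 4.0 CPM), whereas *Pf4* was at 0.67, 1.89 and 0.80 CPM and at 0.47, 0.19 and 0 CPM and was not called (log2 fold change -2.31, adjusted p = 0.074). The B cell, T cell and mast cell or basophil markers summed to 4.54 CPM or less in every library, led by *Ighm*, *Cd3d* and *Cpa3* in replicate 1 of control CFU-E, with *Cpa3* at 0 in all CFU-E Kit-lo libraries. *Ighm*, the B cell marker that could be tested, rose from 0.29, 0.63 and 0.92 CPM to 2.70, 3.01 and 3.49 CPM (log2 fold change 2.33). The part of such cells in the fall was not tested.

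The m6A libraries ask which mRNAs of control CFU-E are enriched by the antibody. They were made by SLIM-seq, a low-input protocol that reads the 3′ ends of mRNAs, and ribosomal protein genes held 6.25% and 6.42% of the input counts and 5.67% and 6.95% of the IP counts. The means were 6.33% ± 0.120 and 6.31% ± 0.905 (SD, n = 2 each), so the groups overlapped and the IP libraries lay on either side of the input. Of 82 members tested, 1 was enriched in the IP (1.22%, beside 7.9% of all 11447 genes tested) and 0 were depleted (beside 7.86%) by edgeR's quasi-likelihood test. At an unadjusted p under 0.05, 2 were above and 2 below 0, and DESeq2 called 1 enriched and 1 depleted. With the replicate number as a block in edgeR, some members were called depleted, *Rps15a*, *Rpl10*, *Rpl14* and *Rpl15* among them. The labels do not say that a number pairs an IP library with an input library. The median log2 fold change of IP over input was -0.15, beside 0.06 in all genes, and 57 of the 82 were below 0 (69.5%, beside 46.8%). Both IP libraries were below both input libraries in 23 members (28.0%, beside 28.7% of all genes) and above in 2 (2.44%, beside 32.2%).

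*Rpl5* was the enriched member. It was at 212 and 234 CPM in the input and at 369 and 366 CPM in the IP (log2 fold change 0.72, standard error 0.21, adjusted p = 0.042), so the IP libraries agreed closely and stood above both inputs. DESeq2 also called it (adjusted p = 0.025), but the adjusted p was 0.066 with DESeq2's size factors in edgeR, and 0.080, 0.36 and 0.21 without replicate 1 of the IP or replicate 1 or 2 of the input. *Rps27rt* had a higher log2 fold change of 1.37 from 0.3 to 1.5 CPM and was not called (standard error 0.59, adjusted p = 0.14). *Rpl7a* at 0.37, *Rpl38* at 0.36 and *Rps29* at 0.33 came next, with overlap of IP and input and adjusted p-values from 0.40 to 0.49.

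At the other end, *Rps15a* was at 434 and 363 CPM in the input and at 196 and 295 CPM in the IP (log2 fold change -0.70, standard error 0.25, adjusted p = 0.084), both IP libraries lower. DESeq2 called it depleted (adjusted p = 0.045). *Rpl10* and *Rpl14* stood at -0.53, *Rpl15* at -0.46 and *Rpl8* at -0.45, with adjusted p-values from 0.14 to 0.22. With the replicate number as a block in edgeR, the adjusted p was 0.0083 for *Rps15a*, 0.024 for *Rpl10*, 0.032 for *Rpl14* and 0.046 for *Rpl15*. It was 0.0021 for the enriched *Rpl5*, and *Rpl8* was not called. The IP libraries differed from each other for most members. On the scale of log2 CPM over the input mean, the median member was at -0.40 in replicate 1 and at 0.07 in replicate 2 of the IP, and 78 and 31 of the 82 members were below the input mean. Without replicate 1 of the IP the median log2 fold change was 0.06, and without replicate 2 it was -0.41 with 9 members depleted, and the median below 0 thus rested on replicate 1 of the IP.

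Enrichment was read against the transcripts themselves, by the representative GENCODE transcript of each gene on GRCm38. The 82 members were short, with a median length of 858 bases, a median 3′ UTR of 87.5 bases and a last exon of 198 bases, whereas the other tested genes had medians of 2863, 916 and 1217 bases. Of the members 25 (30.5%) had a last exon of 400 bases or more, beside 82.5% of the other genes. The share of genes enriched in the IP was higher in longer transcripts among the other genes, from 1.99% of 803 transcripts under 1000 bases to 13% of 3340 transcripts of 4000 bases or more. The 1.22% of the members was beside the 1.99% of short transcripts, and the median log2 fold changes were -0.15 and -0.16. At least 1 GGAC followed by any base but G (written GGACA, or with C or T at the end), letters at which Mettl3 often methylates, was in 91.5% of the members and in 90.5% of the other transcripts under 1000 bases, counted on the sense strand.

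*Rpl5*, at chr5:107900502-107909005 on the plus strand, has 8 exons in its representative transcript of 2045 bases, the last of 1109 bases with the whole 3′ UTR of 1009 bases, and was the 8th longest of the members by last exon. The transcript holds 3 of the strings, at positions 259 and 487 in the coding sequence and at position 1391 in the 3′ UTR, counted from 1 at its 5′ end, and they are shown because it is the member called enriched. The capitals mark GGACA.
Rpl5 at 259: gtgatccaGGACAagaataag
Rpl5 at 487: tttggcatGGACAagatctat
Rpl5 at 1391: gatcatcaGGACAtttattac

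A string of letters is not a methylated site, and the counts per gene do not place the m6A. Other members of long last exon were not enriched. Of 9 members with a last exon of 1000 bases or more, 2 were above 0 and *Rpl5* alone was called, and *Rps15a*, with the longest representative last exon at 4822 bases, was the lowest of all members. Whether the representative transcripts are those present in CFU-E was not tested.

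**Figure D4:**
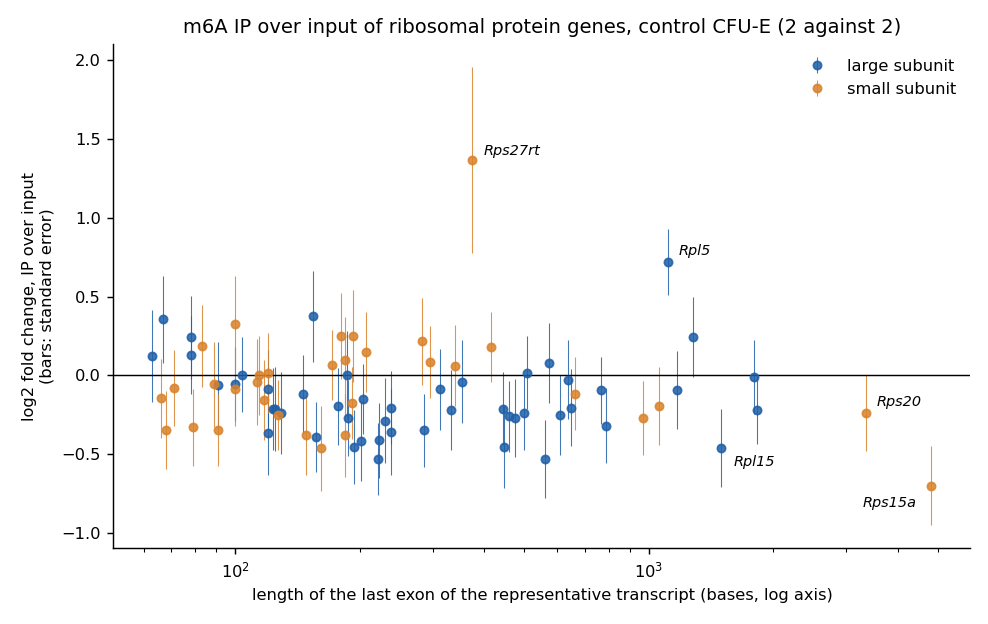
Log2 fold change of m6A IP over input in control CFU-E (y axis, with standard errors) of the 82 ribosomal protein genes against the length of the last exon of the representative transcript (bases, log axis), coloured by subunit. *Rpl5*, at 1109 bases and 0.72, is the called member, and *Rps15a*, at 4822 bases, is the lowest at -0.70.

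Other genes of the pathway are given beside the 7.9% of all genes that were enriched and the 7.86% that were depleted, and differences in these shares were not tested. Of the 20 other TOP mRNAs 2 were enriched (*Eef2* at 0.70 and *Eif4b* at 0.79) and 2 depleted (*Eif3f* at -1.11 and *Btf3* at -0.78). Of the 11 chaperones and importers 4 were enriched (*Tnpo1* at 1.63, *Heatr3* at 1.38, *Ipo7* at 1.06 and *Ipo5* at 1.0) and *Grwd1* was depleted at -0.73. Of the 18 regulators of TOP mRNA translation 2 were enriched (*Larp4* at 0.91 and *Larp4b* at 1.08), and of the 9 genes of ribosome rescue 1 (*Hbs1l* at 1.18). *Fau* and *Rack1* were below 0 and were not called.

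The kinds of library gave very different levels for the same genes in control CFU-E. Of the 82 members in both tables, 72 had a higher CPM in the m6A input, which reads 3′ ends, than in the Smart-seq2 RNA-seq, which reads along the cDNA, with a median ratio of 3.24. In 19 members the ratio was over 10. The tables were normalized separately, so the ratios are given with no test. *Rps29* was at 3.97, 2.86 and 2.58 CPM in the RNA-seq and at 456 and 623 CPM in the input, a ratio of 172. *Rpl38* and *Rps15* had ratios of 136 and 126, and *Rpl28*, *Rpl39*, *Rps7* and *Rps18* at 68.8, 43.9, 43.6 and 36.6. Members of low count in the RNA-seq were thus well counted in the input. The opposite was true of *Rpl4*, at 6529 CPM in the RNA-seq and 2156 CPM in the input, *Rpl6* at 2408 and 1138 CPM and *Rps3a1* at 1780 and 955 CPM. Among the other genes tested in both tables with a transcript under 1000 bases, 707 in all, the median ratio was 3.06 and 141 had a ratio over 10 and over all 10691 other genes the median ratio was 0.605.

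**Figure D5:**
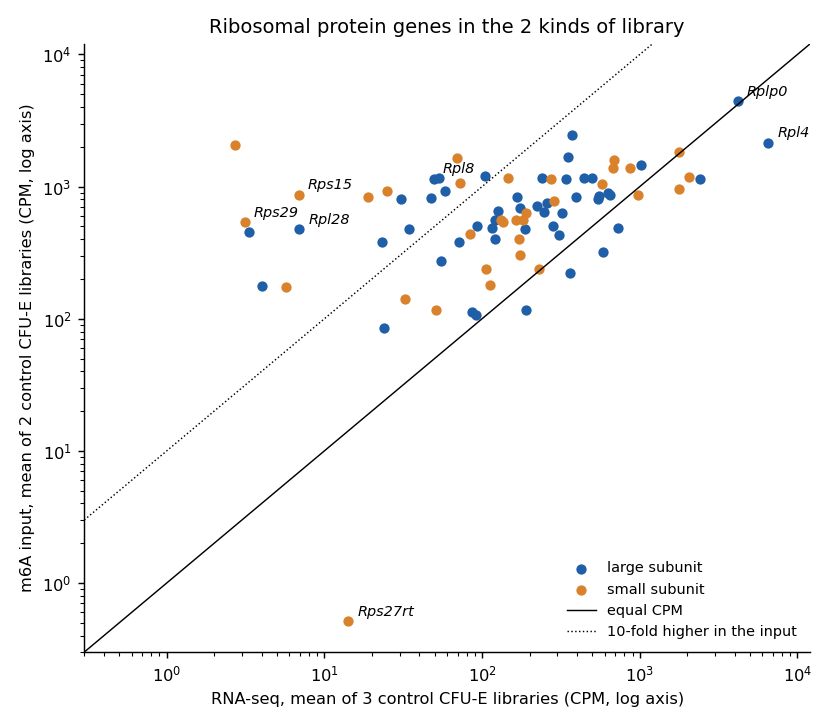
Mean CPM of the 82 ribosomal protein genes in the 3 RNA-seq libraries (x axis, log) and in the 2 m6A input libraries (y axis, log) of control CFU-E, with a solid line at equal values and a dotted line at a 10-fold higher input. *Rps29*, at 3.14 and 540 CPM, is among the 19 members that lie above the dotted line, and *Rpl4* and *Rps27rt* lie below the solid line.

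The members were spread over 19 chromosomes, with at most 15 on any of them and 4 on the X chromosome.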

How the data were processed

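RNA-seq counts of 3 control CFU-E and 3 CFU-E Kit-lo libraries (Smart-seq2, oligo-dT primed) and SLIM-seq counts of 2 m6A IP libraries and 2 input libraries from control CFU-E were analysed. Of 16 samples in the labels, 10 had a column in the tables and 6 proerythroblast samples were not analysed here. Estimated counts per gene, as deposited, were made by the authors with fastp 0.23.4, kallisto 0.48.0 and tximport and were not normalised. The methods name the mouse genome mm10 and the labels also name GRCm39. Strand and the use of the molecular identifiers in counting are not given in the sources used here, and the deposited values are whole numbers. Near-identical copies share reads, which kallisto divides by a model, and overlapping and antisense genes cannot be told apart.

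Genes with low counts were removed with filterByExpr, leaving 11979 and 11447 genes, and each table was fitted whole with TMM normalisation and the quasi-likelihood test of edgeR 4.0.16 (R 4.3.3), without a replicate block, with Benjamini-Hochberg adjustment over all genes tested. Every adjusted p is from this test unless DESeq2 (1.42.0) is named. A call is an adjusted p under 0.05, and a DEG also has a fold of 1.5 or more. CPM are counts over the library total scaled by TMM, and shares are of raw counts. The precision was set by biological coefficients of variation of 19.1% and 21.9%. No pair of libraries held identical values. The script was tested on simulated data. Coordinates, transcripts and start windows are of GRCm38, and 99.93% of the symbols matched its annotation.

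Named in the text are the members with the largest rises and falls, the highest and lowest in the IP, the highest per length, the paralogs, the DEGs and members of the gene lists, some of which are not reported here. Members and lists were chosen with earlier results of these data known, and the groups by place in the ribosome after the values were seen. Alternatives were DESeq2, other scalings, no filter, the replicate number as a block, pseudogene counts summed into the gene, no fold threshold, and leaving out each library.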

Additional observations from a re-analysis of the deposited data

How the results depend on the processing

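For the RNA-seq, the fall of the ribosomal protein genes kept its direction under every alternative run, with medians from -0.55 to -0.44, and of the alternative values of the results 503 kept their direction and call, 22 lost the call and 7 changed sign. The count of members that rose moved from 3 to 1, and of DEGs that rose from 1 to 0, without a filter on low counts, with upper-quartile normalization and with the replicate block. With no fold threshold 63 members were lower. The labels do not say that a replicate number marks a shared animal or batch, and deviations from the group means of same-numbered libraries correlated at 0.034, -0.017 and -0.072. The replicate block gave 58 falls in place of 63. Leaving out each library gave 44 to 62 falls, 0 to 2 rises, 17 (without replicate 2 of CFU-E Kit-lo) to 36 DEGs that fell and 0 to 1 DEGs that rose. Log2 fold changes near 0 changed sign. That of *Rps21* was -0.0050 with upper-quartile normalization and -0.0045 to 0.089 with a library left out, that of *Rps27rt* -0.47 to 0.14 and that of *Rps2* -0.50 to 1.02.

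For the m6A libraries, DESeq2 called 1 member depleted, the replicate block 5 (among them *Rps15a*, *Rpl10*, *Rpl14* and *Rpl15*), and DESeq2's size factors in edgeR 0 enriched. Under the block the adjusted p was 0.0083 for *Rps15a* and 0.0021 for *Rpl5*. Deviations of same-numbered IP and input libraries correlated at 0.205, a single value, since with 2 libraries a group the deviations mirror each other, and it does not establish that the numbers pair the libraries. The median of the members was 2.6e-05 with scaling by library size only, where that of all genes was 0.21, so that members stood below all genes by 0.21. Leaving out a library gave 0 to 9 depleted (9 without replicate 2 of the IP), 0 to 1 enriched, 32 to 78 members below 0 and medians from -0.41 to 0.057, with *Rps29* at -0.18 to 0.68 and *Rpl38* at -0.046 to 0.65. With a library left out, the lone sample of its group is assumed to vary like the others. The cause of these changes was not tested.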
